A study of Schizosaccharomyces japonicus with 6 samples.

Results

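The genes described here are SJAG_03420, SJAG_06608, SJAG_03766, SJAG_04448 and SJAG_06639, which are 5 of the 5152 loci measured by RNA-seq in the fission yeast Schizosaccharomyces japonicus. Each is an annotated protein-coding gene of which retrotransposon elements of the families Tj11, Tj12, Tj17 or Tj18 cover at least 50%. LTR retrotransposons are mobile elements that move by copying their RNA into DNA. A full-length element is flanked by long terminal repeats (LTRs), a partial element has lost part of this structure, and a solo LTR is the repeat alone. RNA interference, in which Dicer cuts double-stranded RNA into small RNAs that guide Argonaute, is a widespread pathway for holding such elements in check.

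RNA was sequenced in 6 libraries of cells grown at 32 °C, 3 biological replicates of wild-type and 3 of dcr1Δ*. Both strains were h-, and carried mat-P2028, ura4-D3 and ade6(sj)-domE. The dcr1Δ* strain also carried the disruption dcr1-dis::natMX6 and the missense allele mpe1-R77W. The gene dcr1 encodes Dicer, and mpe1 encodes a part of the machinery that cleaves and polyadenylates mRNA. The dcr1Δ* strain was a single rare survivor, so its libraries share 1 isolate and the effects of its alleles cannot be told apart. The value used here for each locus is the authors' average log2 CPM (CPM, read counts scaled to library size) over all 6 libraries. It pools the strains, so it has no SD and no test, and how the 5 genes differed between wild-type and dcr1Δ* cells was not analysed here.

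The genes were chosen by their overlap with elements, and the families Tj12, Tj17 and Tj18 had been defined by the study in part from raised mRNA coverage and changed small RNA signal in dcr1Δ* cells. The average levels include those dcr1Δ* libraries, and are therefore a description of genes picked with the same RNA in view. Of the 5 genes, SJAG_03766 lay nearest the limit, with 69.3% of its length in elements of Tj11 to Tj21. No gene below the limit had any of its length in Tj11, Tj12, Tj17 or Tj18. With all of Tj11 to Tj21 counted, the gene nearest below the limit was SJAG_05352, at 17.3%. A gene outside the list, SJAG_05143, also met the limit, with 98.4% of it in a Tj11 element, and its values are given beside the others. Both of these genes, like SJAG_06639, were placed on their contig by the order of the annotation alone.

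The 5 genes differed in how they sat in their elements, which the map of the genes shows. SJAG_03420 is on supercont5.2 of the SJ5 assembly from 1064956 to 1066431 (1476 bases). A partial Tj17 element covered 88.8% of it, starting 166 bases inside the gene and running past its upper end. SJAG_06608, on supercont5.2 from 2391678 to 2391851, is a short gene of 174 bases that lay wholly within a partial Tj12 element. SJAG_06639, placed on supercont5.5 by the order of the annotation alone, runs from 39495 to 39935 (441 bases). On that contig it held a whole partial Tj11 element of 388 bases, and 11.1% of the gene lay in the neighbouring Tj5 element.

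Both remaining genes held Tj18 sequence joined to other families. SJAG_03766 is on supercont5.2 from 3832136 to 3832597 (462 bases). Tj18 covered 69.3% of it and Tj8 covered 31.4%, so that elements covered all of the gene. SJAG_04448 is on supercont5.3 from 849729 to 850832 (1104 bases). It held a complete partial Tj18 element of 807 bases and a complete partial Tj8 element of 255 bases, and 14 of its bases lay in a Tj3 element. The order differed between these genes, since Tj18 lay below Tj8 in SJAG_03766 and above it in SJAG_04448.

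**Figure D1:**
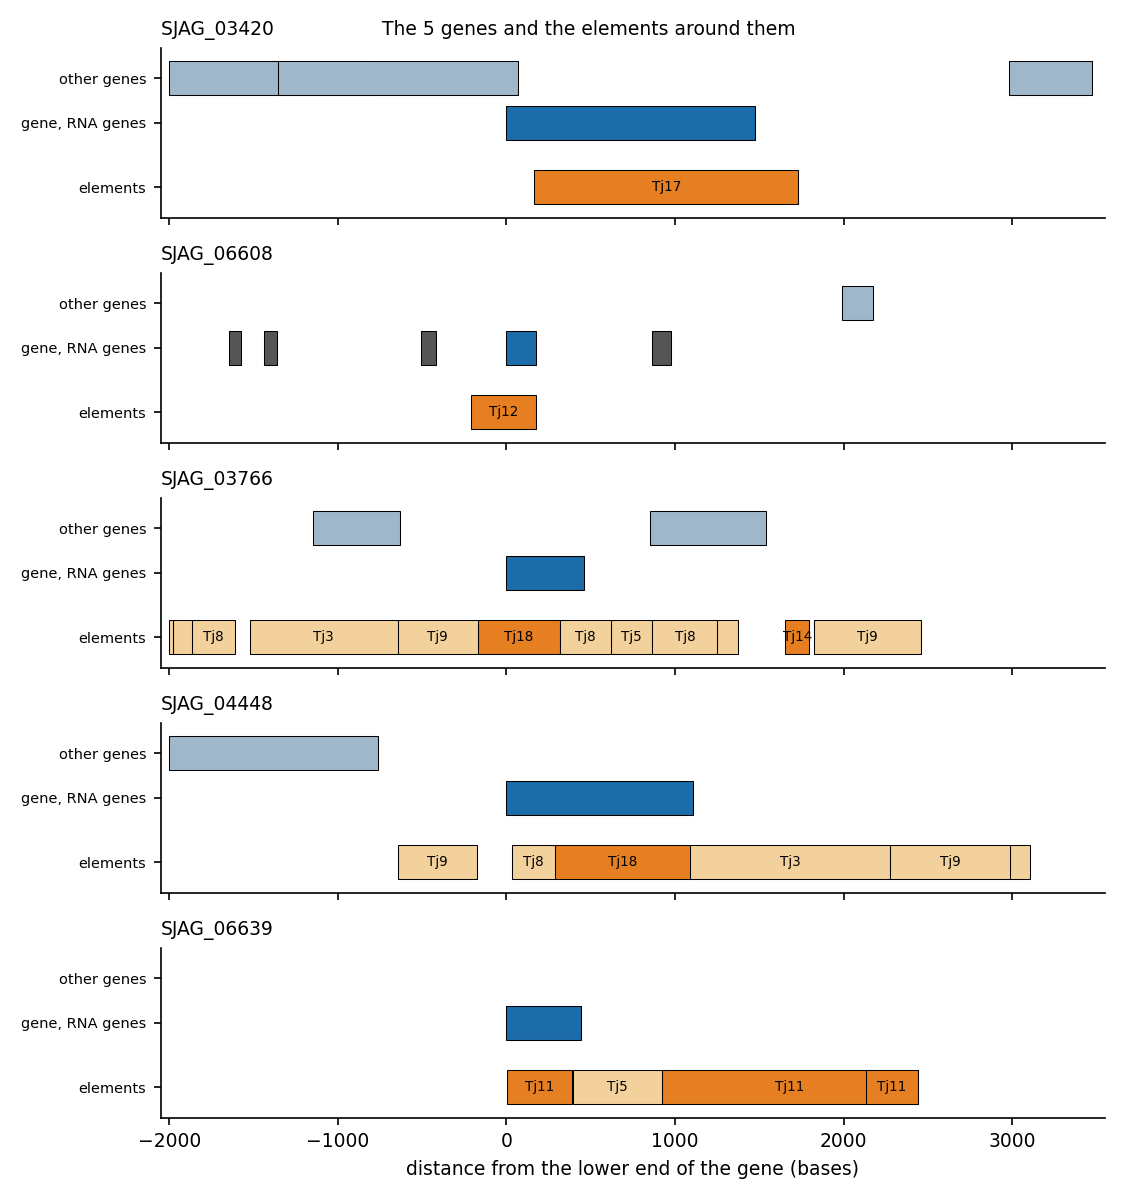
Position of the 5 genes (dark blue), of other protein-coding genes (light blue), of tRNA and rRNA genes (grey) and of elements (orange for Tj11 to Tj21, pale for Tj1 to Tj10) by distance in bases from the lower end of each gene, to scale and up to 2 kb on either side. SJAG_03420 and SJAG_06608 each meet a single element, while SJAG_03766, SJAG_04448 and SJAG_06639 lie in runs of joined elements.

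The surroundings split the genes in a similar way. Within 5 kb of SJAG_03420 and of SJAG_06608 there was no element but the one that covers the gene, and the nearest other element was 16747 bases away for the former and 9998 bases away for the latter. Around SJAG_06608 the annotation places 7 tRNA genes and 1 rRNA gene within 5 kb. By contrast, 16 elements lay within 5 kb of SJAG_03766 or overlapped it, 8 did so at SJAG_04448 and 5 at SJAG_06639. The next protein-coding gene above SJAG_04448 was 140245 bases away, and the next below SJAG_06639 was 26265 bases away. All 5 genes had an annotated length that is a multiple of 3, against 40.0% of the 4878 protein-coding genes of the annotation. A gene model of coding sequence alone, without introns, has such a length.

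The 5 genes were expressed at widely different average levels. SJAG_03420 stood at 162 CPM (7.34 on the log2 scale), SJAG_06639 at 13.6 CPM (3.76), SJAG_03766 at 7.98 CPM (2.997), SJAG_04448 at 7.24 CPM (2.86) and SJAG_06608 at 0.592 CPM (−0.76). The highest and the lowest were 274-fold apart, and SJAG_03420 alone made up 84.7% of the sum of the 5. SJAG_03766 and SJAG_04448, both in Tj18 elements, were the closest pair in CPM, though not once gene length was taken into account. With no value per library, the spread that would tell neighbours in this order apart is not known. The 15 loci at the lowest value of the table, taken as loci without reads, stood at 0.0628 CPM. That value depends on the prior count of the fit, which is not given in the sources used here, and SJAG_06608 was the nearest to it of the 5 genes.

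Most of these levels were low for a gene of this yeast. The median of the 5 genes was 2.997 on the log2 CPM scale, against 6.04 for the 4881 other genes, and 91.0% of the other genes lay above the median of the 5. SJAG_03420 was the exception, with 77.0% of other genes below it (Wilson 95% interval, 75.8% to 78.2%). These intervals cover counting error only, as if the other genes were a sample, and not the error in the level of the gene itself. The shares were 13.3% for SJAG_06639 (12.4% to 14.3%), 9.04% for SJAG_03766 (8.26% to 9.87%), 8.56% for SJAG_04448 (7.81% to 9.38%) and 1.58% for SJAG_06608 (1.26% to 1.97%). SJAG_05143, the sixth gene over the limit, had 18.2 CPM and 16.8% of other genes below it.

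Short genes collect fewer reads, and 3 of the 5 were among the shortest of the annotation. Their median length was 462 bases, and 1785 bases was the median of all protein-coding genes. Only 0.0616% of other genes were shorter than SJAG_06608, 2.57% were shorter than SJAG_06639 and 2.93% were shorter than SJAG_03766. Levels were therefore divided by gene length, which is the annotated span from start to end with any introns in it. Other genes with introns may thus have lower levels per kb than their coding sequence alone would give, which was not tested. Division by length gave 110 CPM per kb for SJAG_03420, 30.8 for SJAG_06639, 17.3 for SJAG_03766, 6.56 for SJAG_04448 and 3.40 for SJAG_06608. The order of the genes stayed as it was, but the distance from highest to lowest fell to 32.3-fold. SJAG_03766 and SJAG_04448 were no longer the closest pair. Per kb, the closest were SJAG_06639 and SJAG_03766, 1.78-fold apart.

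Per kb, SJAG_06639 moved from the low end to the middle of all genes, with 47.4% of 4873 other genes below it (46.0% to 48.8%). SJAG_03766 stood above 28.5% of them (27.3% to 29.8%), while SJAG_04448 and SJAG_06608 stayed low, above 10.7% (9.82% to 11.5%) and 6.46% (5.81% to 7.19%). SJAG_03420 was above 79.9% (78.8% to 81.0%). The median of the 5 genes was 17.3 CPM per kb, and that of the other genes was 33.4.

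**Figure D2:**
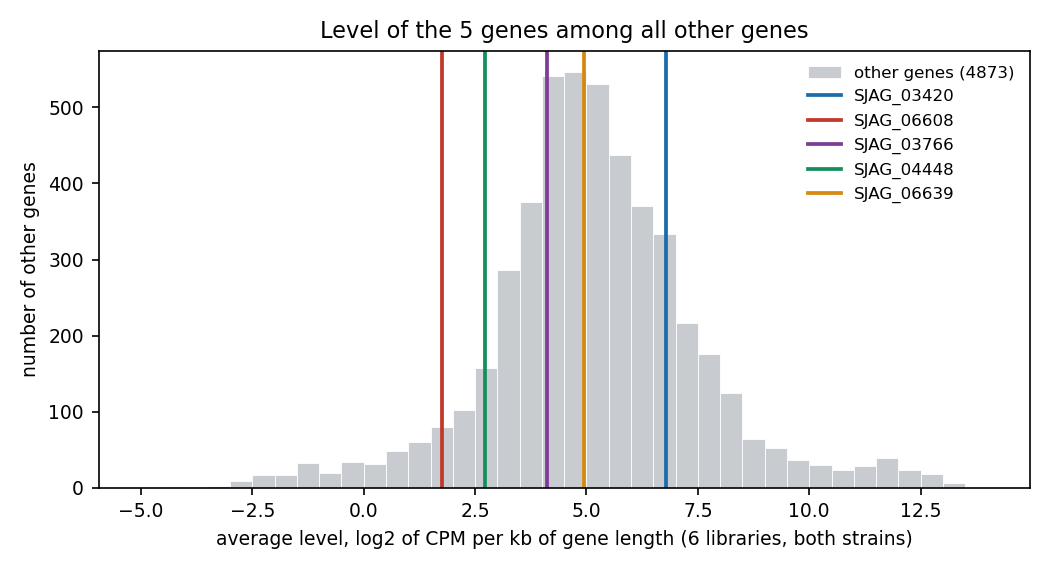
Average level of the 5 genes (coloured lines) on the log2 scale of CPM per kb, over a histogram of 4873 other genes, whose number in each bin is on the vertical axis. SJAG_06608 and SJAG_04448 lie in the lower tail, SJAG_03766 below the centre, SJAG_06639 near it and SJAG_03420 above it.

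Beside their neighbours, the genes again took different places. SJAG_03420, at 110 CPM per kb, was 1.68-fold above SJAG_03419, which it overlaps by 66 bases, and 3.18-fold above SJAG_03421 on the other side. No element touches either neighbour. SJAG_06608 was far below the genes on either side of it, SJAG_04837 at 92.1 and SJAG_04436 at 128 CPM per kb, whereas it stood at 3.40. SJAG_04448 was likewise below SJAG_04449 (110 CPM per kb) and the distant SJAG_05153 (20.8).

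SJAG_03766 showed the reverse. Both of its neighbours lie mostly or wholly within Tj1 to Tj10 elements, and it was 11.3-fold above SJAG_16458 and 16.1-fold above SJAG_03765 per kb. The elements over these neighbours were counted as loci of their own, whereas the Tj18 element over 69.3% of SJAG_03766 was not. Reads of SJAG_03766 and of its neighbours may thus not have been counted alike, which was not tested. SJAG_06639 was 2.07-fold above SJAG_06638 and 1.56-fold above SJAG_05143, which is itself inside Tj11 sequence. None of these differences has a spread over libraries to set it against.

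The retrotransposon loci close by were also compared per kb. The table holds 13 Tj1 to Tj10 loci within 5 kb of SJAG_03766, and their levels ran from 0.163 to 36.0 CPM per kb with a median of 1.35. The lowest of them, and 2 of the 13 in all, were loci without reads. SJAG_03766, at 17.3, was above 12 of them. SJAG_04448, at 6.56, was near the median of 6.51 of the 7 loci around it, which ran from 0.246, a locus without reads, to 33.7. For SJAG_06639 the 1 such locus, the Tj5 element that overlaps it, stood at 4.14.

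**Figure D3:**
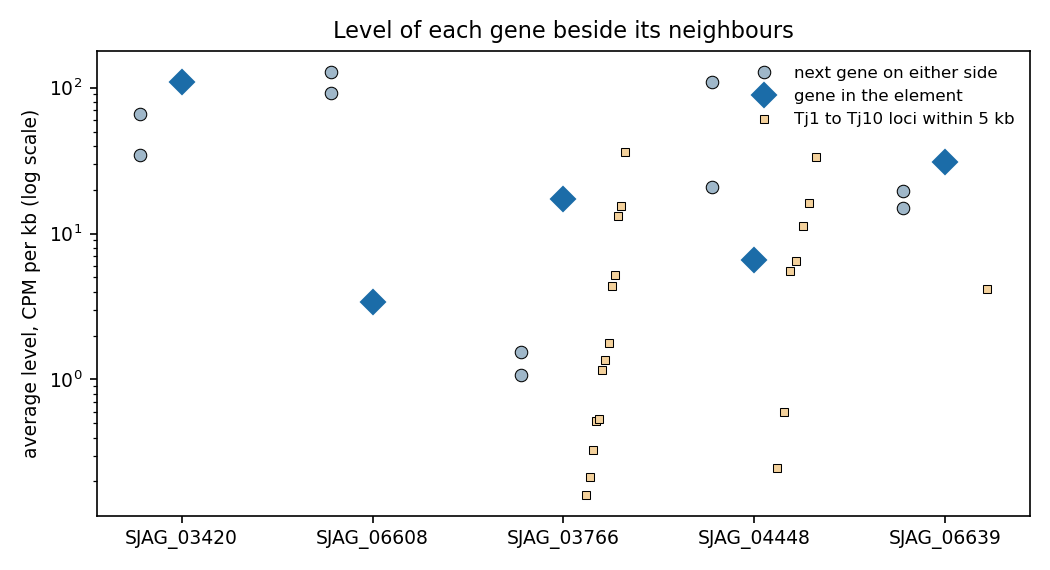
Average level in CPM per kb (log scale) of each of the 5 genes (diamonds), of the next protein-coding gene on either side (circles) and of Tj1 to Tj10 loci within 5 kb (squares, spread sideways for clarity). SJAG_03766 lies above both of its neighbouring genes and above 12 of 13 loci, while SJAG_06608 and SJAG_04448 lie below both neighbouring genes.

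As a group, the 5 genes had a higher average level per kb than the retrotransposon loci that the table counts directly. Their median of 17.3 CPM per kb compares with 2.78 for the 13 full-length elements, 1.66 for the 190 partial elements and 0.822 for the 63 solo LTRs. For full-length elements the order turned without the division by length. Their median was 3.81 on the log2 CPM scale, against 2.997 for the 5 genes, and 8 of the 13 lay above the median of the 5. The 7 other genes of which Tj1 to Tj10 elements cover at least 50% had a median of 0.565, with values from 0.0485 to 43.4. Elements of Tj1 to Tj10 were counted as loci of their own, while those of Tj11, Tj12, Tj17 and Tj18 were not. Reads may thus have been assigned differently in these 7 genes and in the 5, which was not tested. The ranges overlapped widely, since partial elements reached 1041 CPM per kb and the 5 genes began at 3.40. Reads were also split among near-identical copies, and whether this affected elements and the 5 genes alike is not known. These medians describe 5 genes picked partly on their RNA, and the difference was not tested.

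Reads in the overlaps may be counted on either feature or on none, and the setting used for them is not given in the sources used here. The complete Tj8 element within SJAG_04448 was listed at the level of loci without reads, 0.0628 CPM, and the Tj8 element that shares 145 bases with SJAG_03766 at 0.0647 CPM. Of the 6 Tj1 to Tj10 loci on the same contigs with at least 50% of their length inside a gene, 3 were at the level without reads. Of the 176 loci that touch no gene, 5 were. All of those 3 lie in SJAG_04448 or in SJAG_03765, the neighbour of SJAG_03766. They include the Tj8 element of SJAG_04448 just named, so this count is not separate from the cases above. With shared bases left out of the length, SJAG_03766 stood at 25.2 CPM per kb and above 40.6% of other genes, and SJAG_04448 stood at 8.67 and above 13.7%. Whether reads were lost in these overlaps was not tested.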

How the data were processed

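Polyadenylated RNA of wild-type and dcr1Δ* cells was sequenced in 3 libraries each. The authors trimmed reads with Trim Galore!, aligned them to SJ5 with STAR and ran featureCounts, in which a read with several mapping places gave each a fraction, so near-identical copies share reads. The authors then fitted edgeR. The submitters' processing notes give Trim Galore 0.4.3.1, STAR 2.7.2b, featureCounts 2.0.1 and edgeR 3.34.0, while the paper's methods name other versions of featureCounts and edgeR. The filter, normalization, prior count and strand setting are not given in the sources used here. The deposited table gave the 1 column used here, the average log2 CPM over all 6 libraries. Its other 4 columns (fold change, F, p-value, FDR) are the authors' own comparison and were not used. Total counts per library were therefore unknown and no replicate could be left out.

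CPM was 2 to the power of the deposited value (sum, 1002179 over 5152 loci). The 266 loci named Tj were taken as TE loci and 4886 as genes. RefSeq's SJ5 table gave positions and lengths for 4878 genes but no contig or strand. Contigs were assigned from its order, each drop in position starting a new one, which placed 4869 genes on 6 contigs. On the 3 long contigs, genes and elements shared 5311 bases in the order used and at least 47757 in 5 other orders. The placing of SJAG_06639 on supercont5.5 rests on its set of 5 genes lying between those of supercont5.4 and supercont5.6. The overlap of these 5 genes alone does not settle it. They shared 2689 bases with elements of supercont5.5, 3857 with those of supercont5.4 and 0 with those of supercont5.6. The next set, of 24 genes, shared 7072 bases with elements of supercont5.5. In that set 20 genes overlapped elements of supercont5.4, 10 overlapped elements of supercont5.5, and 1 gene overlapped an element of supercont5.6. In the set of 5 genes, 5 overlapped elements of supercont5.4 and 4 overlapped elements of supercont5.5. These counts do not tell the short contigs apart. Element positions came from the study's list of elements, with starts read as counted from 0. Rank is the share of other genes with a lower level, with Wilson 95% intervals. The planned protein alignments were not run, and RNAi genes were not looked up because no gene names were paired with locus tags. Alternatives changed the coverage limit, the scale, the background genes and the level subtracted.

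The 5 genes and all lists were chosen with earlier results of these data known. The text also names genes next to the coverage limit, the next gene on either side and overlapping Tj1 to Tj10 loci. The solo Tj9 LTRs were chosen after their positions were seen. Python 3.11.15, numpy 2.4.6, pandas 2.3.3, scipy 1.17.1 and matplotlib 3.10.9 were used. The overlap and rank functions were tested on simulated data.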

Additional observations from a re-analysis of the deposited data

How the results depend on the processing

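The median level of the 5 genes, 2.997 on the log2 CPM scale, was 3.76 for the 3 of the 5 genes with at least 80% coverage, 2.86 for all 9 genes with any overlap with Tj11 to Tj21 (SJAG_05143 among them), 2.99 with the level of loci without reads subtracted and 4.11 as log2 CPM per kb. With SJAG_05143 counted, an alternative chosen after seeing the data, it was 3.38. Among all loci, TE loci included, 3.92% lay below SJAG_06608, 12.8% below SJAG_03766, 12.3% below SJAG_04448 and 16.98% below SJAG_06639. Among the 4764 other genes with a log2 CPM of at least 0 the shares were 0%, 6.80%, 6.32% and 11.1% in that order. The share below SJAG_03420 stayed within its interval in both cases. Per kb the shares were 79.9% for SJAG_03420, 6.46% for SJAG_06608, 28.5% for SJAG_03766, 10.7% for SJAG_04448 and 47.4% for SJAG_06639. With the level without reads subtracted as well, they were 79.9%, 5.97%, 28.3%, 10.7% and 47.4%. With bases shared with another counted locus left out of the length, chosen after seeing the data, they were 80.6%, 6.46%, 40.6%, 13.7% and 51.1%. Dividing by length raised the share from 13.3% to 47.4% for SJAG_06639, from 9.04% to 28.5% for SJAG_03766 and from 1.58% to 6.46% for SJAG_06608. At 0.592 CPM, SJAG_06608 lay nearest the level without reads, and the depth of each library is unknown. No paired analysis was possible because the values used pool all 6 libraries and come from no test.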

Other observations

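A solo Tj9 LTR lay at nearly the same place beside each of the genes that hold Tj18 sequence, although they are on different contigs. The LTR below SJAG_03766 is 474 bases long and ends 172 bases before the gene, and that below SJAG_04448 is 473 bases long and ends 173 bases before it. Between LTR and gene the loci differ, because Tj18 begins in this gap at SJAG_03766 and inside the gene at SJAG_04448. The LTR beside SJAG_03766 stood at 13.1 CPM per kb and the gene at 17.3, while the LTR beside SJAG_04448 stood at 5.55 and the gene at 6.56. The median of all solo LTRs was 0.822. On the other side of SJAG_03766, a solo Tj5 LTR 157 bases away stood at 0.329 CPM per kb. A solo Tj2 LTR 790 bases away was at the level without reads, but it lies wholly inside the gene SJAG_03765. The Tj5 LTR overlaps one end of SJAG_03765, and the Tj9 LTR below SJAG_03766 overlaps one end of SJAG_16458. How reads in these overlaps were counted is not known, so these levels do not tell the sides of SJAG_03766 apart. Whether one transcript runs through LTR and gene was not tested, and the strand of the genes is not given in the table used.

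Of 58 Tj11, Tj12, Tj17 and Tj18 elements on the 6 contigs, 6 touch an annotated protein-coding gene. These families have 66 elements in all, and those on other contigs were not compared with genes.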
